A study of Mus musculus with 14 samples.

Results

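The 9 genes described here are some of the receptor chains and ligands of the gp130 family, its transcription factor and feedback inhibitors of cytokine signalling: Il6st, Il6ra, Lifr, Osmr, Clcf1, Lif, Stat3, Socs3 and Cish. They were selected by gene symbol from the hippocampal count table, through the identifiers of the mouse annotation GENCODE M21, and are 9 of 55536 Ensembl genes in that table. The filter, at least 10 counts summed over 14 libraries, left 38070 genes to test, all 9 members among them. The selection was made on values that already compared MRL with MRL-IRAK4-KD mice, and therefore fold changes of the 9 genes between these groups are given as a description, with no p. In MRL mice, Socs3 had the highest mean of the 4 groups, 3.05 ± 1.22 CPM (SD, n = 4) against 1.06 ± 0.468 CPM (n = 4) in MRL-IRAK4-KD mice, and 3 of 4 MRL libraries lay above every other library. Il6st, Cish, Osmr, Clcf1 and Stat3 also had their highest means in MRL mice. The signalling receptor chain Il6st had means between 64.5 and 76.3 CPM in the 4 groups, and the ligand Lif had its highest mean in C57BL6/J mice. By edgeR, 0 of 9 members had an adjusted p below 0.05 in the 3 comparisons in which members were tested, beside 0% of all genes between MRL and C57BL6/J mice, 0.147% between IRAK4-KD and C57BL6/J mice and 0.0735% between MRL-IRAK4-KD and IRAK4-KD mice.

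gp130, encoded by Il6st, is the signalling chain shared by the receptors of interleukin-6, leukemia inhibitory factor (LIF), oncostatin M, cardiotrophin-like cytokine and related ligands. A ligand joins gp130 to itself or to a second chain, the attached JAK kinases phosphorylate the receptor, and STAT3 docks there, is phosphorylated in turn and moves to the nucleus. STAT3 then drives Socs3, whose protein binds gp130 and JAK and shuts the signal down. In the brain the pathway is best known from astrocytes, in which it drives the reactive state, and from endothelial cells and microglia, which respond to cytokines of the blood.

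Hippocampi came from mice of 10 months of age that had been perfused, and the labels number the libraries within each group. They do not name the animal behind a library, and p-values therefore measure the spread between these libraries. MRL mice (n = 4, with n the number of libraries throughout) are B6.MRL-Faslpr/J, which carry the lpr mutation of the death receptor gene Fas. MRL-IRAK4-KD mice (n = 4) carry lpr and a kinase-dead form of IRAK4, the kinase below Toll-like and interleukin-1 receptors, IRAK4-KD mice (n = 3) are labelled as carrying the kinase-dead form alone, and C57BL6/J mice (n = 3) carry neither. All groups share the C57BL/6 background. Neither mutation was restricted to a cell type by a promoter or Cre in the sources used here, and effects in brain and immune cells cannot be told apart by these groups. The study asked how loss of IRAK4 kinase activity alters the brain of lupus-prone mice, and these groups were read here through the gp130 pathway.

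Total counts per library ran from 279941472 to 572398312, and counts per sequenced read from 1.80 to 2.08 in 13 libraries. MRL-IRAK4-KD replicate 4 had 1.40 counts per read and an input RNA concentration by Qubit of 27.4 in the sequencing core's sheet (unit not given there), against 39.6 to 43.7 in the other libraries. In this library genes with transcripts under 2000 bases were shifted by a median of 0.46 on the log2 scale from the other 3 of its group, and those of at least 6000 bases by -0.54. The library labelled IRAK4-KD replicate 3 had 0 counts of the full-length Fas transcript Fas-201, as had all 8 lpr libraries, while the other 5 non-lpr libraries had 345 to 584. It had 514 counts of Fas-204, against 268 to 964 in the lpr libraries and at most 7 in the others, so that its Fas transcripts go against its label, and every value of the IRAK4-KD group below includes this library unless it is said to be left out. Its 8 striatal markers summed to 484 CPM, against at most 181 in any other library. The 9 choroid plexus markers summed to 7905 CPM in MRL-IRAK4-KD replicate 4 and at most 1890.5 CPM elsewhere. The 8 pituitary markers summed to 87.5 CPM in MRL replicate 3 and at most 6.42 CPM elsewhere. Irak4 had means of 2.01 to 2.38 CPM in the 4 groups, and its counts cannot show a mutation in the kinase domain. All 8 hippocampal, 8 astrocyte and 8 neuronal markers had counts in every group. The hippocampal markers summed to a median of 462 CPM (391 to 750.1) in MRL and 666 CPM (594 to 692) in MRL-IRAK4-KD libraries, and in that comparison 4 of 8 were lower in MRL mice with unadjusted p-values below 0.05, a level reached by 11.4% of all genes. The part of these differences in the values of the members was not tested. CPM are counts as a share of the library, scaled by the TMM method of edgeR. In bulk tissue fewer cells of a type and less RNA per cell cannot be told apart.

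Levels of different genes were compared per length, as TPM, that is transcript counts divided by length and scaled to the same total in each library. Over the 14 libraries Stat3 was the most abundant member at 19.8 ± 2.21 TPM (SD), followed by Il6st at 16.5 ± 2.42 and Lifr at 11.9 ± 2.36 TPM. Il6ra at 2.58 ± 0.732, Osmr at 2.23 ± 0.742, Cish at 1.97 ± 0.391 and Socs3 at 1.51 ± 0.910 TPM formed a second tier. The ligands Clcf1 at 0.914 ± 0.180 and Lif at 0.557 ± 0.174 TPM were lowest. The library ranges of Stat3 and Il6st overlapped, as did those of all neighbours within the second tier.

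**Figure D1:**
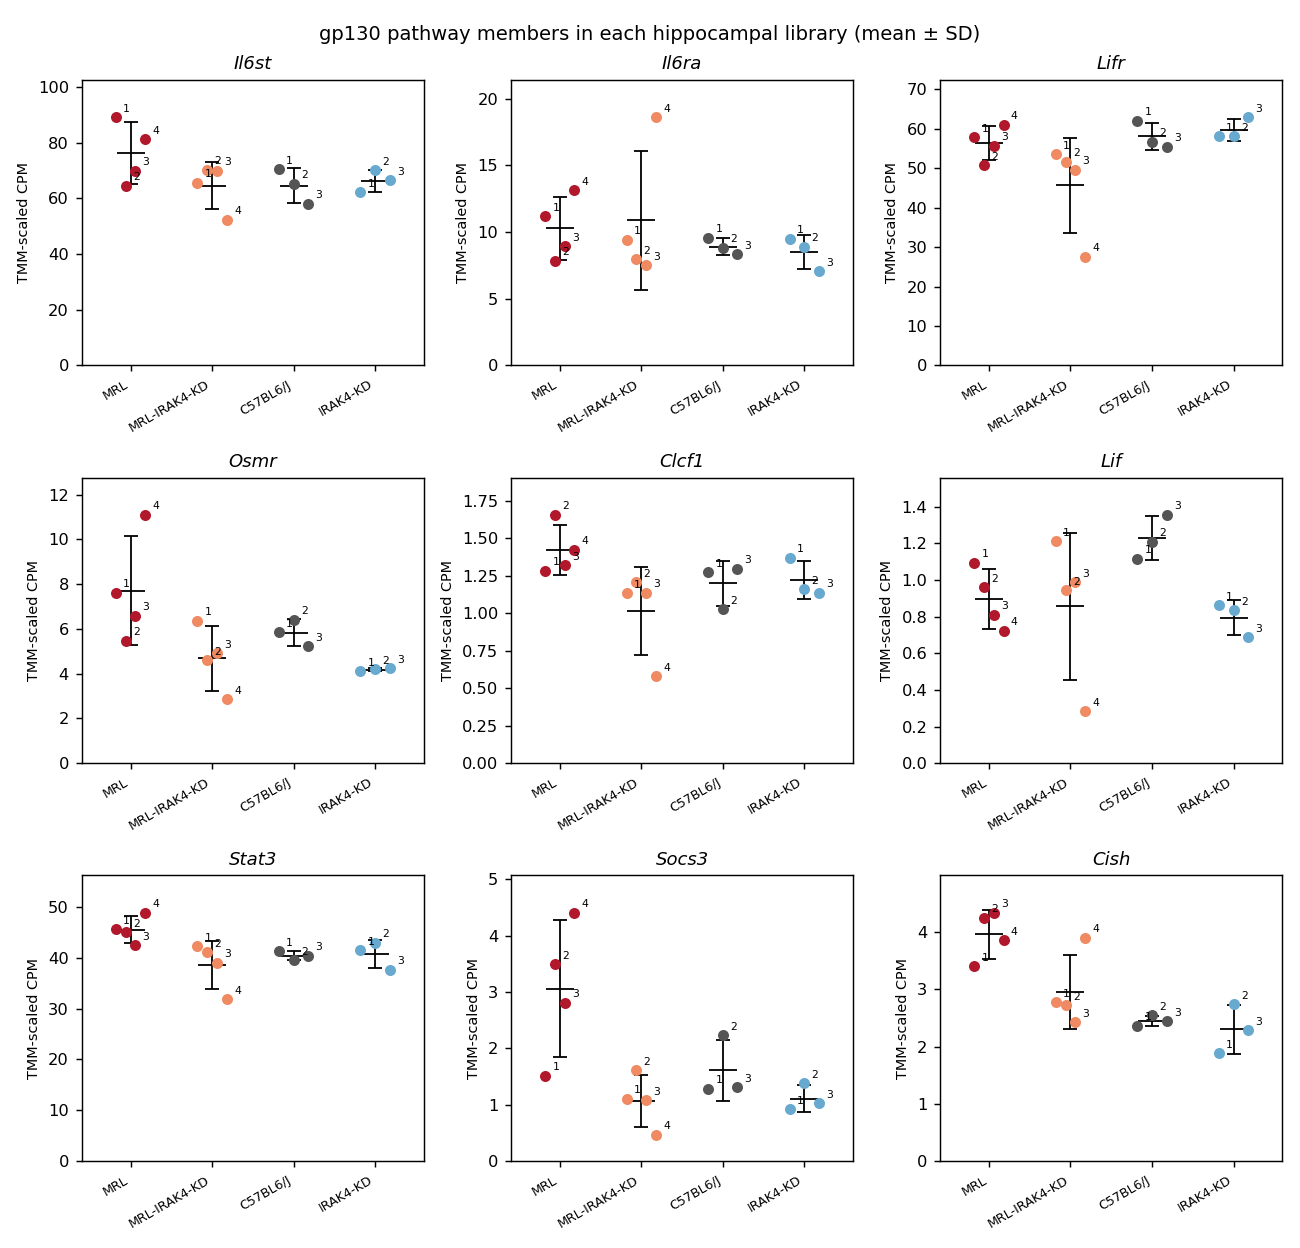
TMM-scaled CPM (vertical axis, from 0) of the 9 members in each library of the 4 groups (horizontal axis), with replicate numbers beside the points and black bars for the mean ± SD of 4, 4, 3 and 3 libraries. MRL replicates 2 to 4 stand above all other libraries for Socs3, and MRL-IRAK4-KD replicate 4 is the lowest library for every member except Il6ra and Cish.

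Il6st (ENSMUSG00000021756.12, chr13:112464070-112510086 of mm10, plus strand) encodes gp130 itself. Il6st had 89.2, 64.6, 70.0 and 81.2 CPM in MRL replicates 1 to 4, 65.5, 70.3, 69.9 and 52.4 CPM in MRL-IRAK4-KD replicates 1 to 4, 70.5, 65.3 and 58.1 CPM in C57BL6/J replicates 1 to 3 and 62.1, 70.2 and 66.6 CPM in IRAK4-KD replicates 1 to 3. The ranges of all 4 groups overlapped, and MRL replicate 1 was highest and MRL-IRAK4-KD replicate 4 lowest. Fold changes are given on the log2 scale ± the standard error of the edgeR fit. That of MRL over MRL-IRAK4-KD mice was 0.24 ± 0.12, and it was 0.16 without MRL-IRAK4-KD replicate 4 and 0.15 without MRL replicate 1. Against C57BL6/J mice, MRL mice had a log2 fold change of 0.24 ± 0.13 with an edgeR adjusted p of 0.925.

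Lifr (ENSMUSG00000054263.12, chr15:7090614-7197489, plus strand) encodes the second chain that pairs with gp130 for LIF and ciliary neurotrophic factor. Lifr had 57.9, 50.8, 55.7 and 61.0 CPM in MRL replicates 1 to 4, 53.6, 51.7, 49.7 and 27.6 CPM in MRL-IRAK4-KD replicates 1 to 4, 62.1, 56.8 and 55.5 CPM in C57BL6/J replicates 1 to 3 and 58.1, 58.1 and 63.0 CPM in IRAK4-KD replicates 1 to 3. MRL-IRAK4-KD replicate 4 was far below the other 13 libraries, which lay between 49.7 and 63.0 CPM. The leading transcript, Lifr-203 of 9655 bases, is the longest of the members' leading transcripts. The fold change of MRL over MRL-IRAK4-KD mice was 0.30 ± 0.16 on the log2 scale with that library and 0.13 without it. Lifr was the 1 member whose MRL-IRAK4-KD and IRAK4-KD ranges did not overlap, with a log2 fold change of -0.39 ± 0.17 and an edgeR adjusted p of 0.553, and it was -0.21 without that library. Of all genes tested, 8.74% had ranges that did not overlap in this comparison.

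Osmr (ENSMUSG00000022146.12, chr15:6813577-6874969, minus strand) encodes the chain that pairs with gp130 for oncostatin M. Osmr had 7.63, 5.47, 6.60 and 11.1 CPM in MRL replicates 1 to 4, 6.37, 4.60, 4.90 and 2.85 CPM in MRL-IRAK4-KD replicates 1 to 4, 5.86, 6.41 and 5.23 CPM in C57BL6/J replicates 1 to 3 and 4.11, 4.20 and 4.25 CPM in IRAK4-KD replicates 1 to 3. MRL replicate 4 was highest of all libraries, and the 3 IRAK4-KD libraries, between 4.11 and 4.25 CPM, lay below every C57BL6/J library. Group means ran from 7.70 ± 2.43 CPM in MRL through 5.83 ± 0.592 CPM in C57BL6/J and 4.68 ± 1.45 CPM in MRL-IRAK4-KD to 4.18 ± 0.0731 CPM in IRAK4-KD mice. Both groups with the kinase-dead form thus had lower means than their counterparts with intact IRAK4, and neighbouring groups in this order overlapped. The log2 fold change of MRL over MRL-IRAK4-KD mice was 0.72 ± 0.23, 0.55 without MRL-IRAK4-KD replicate 4 and 0.50 without MRL replicate 4. That of IRAK4-KD over C57BL6/J mice was -0.48 ± 0.27, with an edgeR adjusted p of 1, and -0.49 without the library labelled IRAK4-KD replicate 3. With both effects taken as intact over kinase-dead IRAK4, their difference, that is the interaction, was 0.24 ± 0.36 on the log2 scale. Leaving out MRL replicate 4 gave 0.03, and leaving out MRL-IRAK4-KD replicate 4 gave 0.07.

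Il6ra (ENSMUSG00000027947.11, chr3:89864059-89913196, minus strand) encodes the chain that binds interleukin-6 before gp130 joins, and an antisense gene, Gm42809, overlaps it on the plus strand. Il6ra had 11.2, 7.85, 8.93 and 13.1 CPM in MRL replicates 1 to 4, 9.42, 7.95, 7.49 and 18.6 CPM in MRL-IRAK4-KD replicates 1 to 4, 9.57, 8.82 and 8.33 CPM in C57BL6/J replicates 1 to 3 and 9.49, 8.88 and 7.08 CPM in IRAK4-KD replicates 1 to 3. MRL-IRAK4-KD replicate 4 was the highest library here, the opposite of its place for the other receptor chains. With it, the log2 fold change of MRL over MRL-IRAK4-KD mice was -0.08 ± 0.26, and without it the sign turned, to 0.32. All group ranges overlapped, with or without this library.

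Of the ligands, Clcf1 (ENSMUSG00000040663.9, chr19:4214238-4223490, plus strand) encodes cardiotrophin-like cytokine, which signals through gp130 and the LIF receptor. Clcf1 had 1.28, 1.66, 1.32 and 1.42 CPM in MRL replicates 1 to 4, 1.13, 1.21, 1.14 and 0.580 CPM in MRL-IRAK4-KD replicates 1 to 4, 1.27, 1.03 and 1.30 CPM in C57BL6/J replicates 1 to 3 and 1.37, 1.16 and 1.14 CPM in IRAK4-KD replicates 1 to 3. All 4 MRL libraries lay above all 4 MRL-IRAK4-KD libraries, and within the latter group replicate 4 stood apart from the other 3, at 0.580 against a mean of 1.16 CPM. The log2 fold change was 0.49 ± 0.22, and 0.30 without that library. C57BL6/J and IRAK4-KD mice had means of 1.20 ± 0.149 CPM and 1.22 ± 0.129 CPM (n = 3 each), and both overlapped MRL mice.

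Lif (ENSMUSG00000034394.14, chr11:4257557-4272514, plus strand) encodes leukemia inhibitory factor. Lif had 1.09, 0.963, 0.811 and 0.723 CPM in MRL replicates 1 to 4, 1.21, 0.943, 0.990 and 0.283 CPM in MRL-IRAK4-KD replicates 1 to 4, 1.12, 1.21 and 1.36 CPM in C57BL6/J replicates 1 to 3 and 0.862, 0.836 and 0.687 CPM in IRAK4-KD replicates 1 to 3. The 3 C57BL6/J libraries lay above all 4 MRL and all 3 IRAK4-KD libraries, and MRL-IRAK4-KD replicate 4 was again the lowest, with 88 counts in its library. MRL mice had a log2 fold change of -0.45 ± 0.35 against C57BL6/J mice (edgeR adjusted p = 1) and IRAK4-KD mice one of -0.63 ± 0.38 (adjusted p = 1), which was -0.53 without the library labelled IRAK4-KD replicate 3. Over MRL-IRAK4-KD mice, MRL mice had 0.06 ± 0.33, and -0.22 without MRL-IRAK4-KD replicate 4.

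Stat3 (ENSMUSG00000004040.16, chr11:100885098-100939540, minus strand), the transcription factor of the pathway, overlaps Stat5a on the opposite strand. Stat3 had 45.6, 45.1, 42.5 and 48.9 CPM in MRL replicates 1 to 4, 42.2, 41.1, 39.0 and 31.9 CPM in MRL-IRAK4-KD replicates 1 to 4, 41.3, 39.5 and 40.4 CPM in C57BL6/J replicates 1 to 3 and 41.5, 43.0 and 37.6 CPM in IRAK4-KD replicates 1 to 3. The 4 MRL libraries lay above all MRL-IRAK4-KD and all C57BL6/J libraries by a small margin, 42.5 against 42.2 CPM at the nearest to MRL-IRAK4-KD mice, and overlapped IRAK4-KD replicate 2. The log2 fold change of MRL over MRL-IRAK4-KD mice was 0.24 ± 0.10, and 0.16 without MRL-IRAK4-KD replicate 4, whose level was the lowest. Against C57BL6/J mice it was 0.17 ± 0.10, with an edgeR adjusted p of 0.935. In IRAK4-KD against C57BL6/J mice the log2 fold change was 0.01 ± 0.11, and 0.06 without the library labelled IRAK4-KD replicate 3. A transcript level says nothing of STAT3 phosphorylation, the step by which the pathway signals.

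Socs3 (ENSMUSG00000053113.3, chr11:117966079-117970047, minus strand) encodes the feedback inhibitor that binds gp130 and is a direct target gene of STAT3. The 250 bases before its RefSeq start (GRCm38.p6, which is mm10, chr11:117969367-117969616, minus strand) are shown because the gene had the widest range between groups of all members. Capitals mark the STAT recognition letters TTCNNNGAA, a palindrome that was searched in the 250 bases before and 50 after each start.

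Socs3: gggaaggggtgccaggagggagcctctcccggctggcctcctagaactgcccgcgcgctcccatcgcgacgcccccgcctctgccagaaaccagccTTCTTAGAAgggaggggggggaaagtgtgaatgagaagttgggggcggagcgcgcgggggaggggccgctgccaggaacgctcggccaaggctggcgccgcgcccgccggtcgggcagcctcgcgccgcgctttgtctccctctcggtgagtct

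The match lies 154 to 146 bases before the RefSeq start and 334 to 326 bases before the start of Socs3-201, the transcript that held 93.4% to 100% of the gene's transcript counts in each library. The searched window ended before the start of Socs3-201, and the bases between them were not searched. A match was in 8.3% of all RefSeq start windows, and binding of STAT3 to this one was not tested. Socs3 had 1.52, 3.49, 2.81 and 4.41 CPM in MRL replicates 1 to 4, 1.11, 1.61, 1.08 and 0.464 CPM in MRL-IRAK4-KD replicates 1 to 4, 1.28, 2.23 and 1.31 CPM in C57BL6/J replicates 1 to 3 and 0.919, 1.38 and 1.02 CPM in IRAK4-KD replicates 1 to 3. MRL replicates 2 to 4 lay above all other 11 libraries, while MRL replicate 1 lay within the range of the other groups, at 705 counts against 1992, 1330 and 2108 in replicates 2 to 4. The log2 fold change of MRL over MRL-IRAK4-KD mice was 1.52 ± 0.37, the largest of the 9 members. It was 1.28 without MRL-IRAK4-KD replicate 4, 1.30 without MRL replicate 4, 1.56 without MRL replicate 3, and between 1.28 and 1.79 with any 1 library left out. Against C57BL6/J mice, MRL mice had a log2 fold change of 0.93 ± 0.40 with an edgeR adjusted p of 0.897 and an unadjusted p of 0.0384. IRAK4-KD mice had -0.54 ± 0.43 against C57BL6/J mice (adjusted p = 1), which was -0.22 without C57BL6/J replicate 2, the highest of its group, and -0.48 without the library labelled IRAK4-KD replicate 3. MRL-IRAK4-KD and IRAK4-KD mice, with means of 1.06 ± 0.468 CPM and 1.11 ± 0.241 CPM, differed by -0.05 ± 0.40 (adjusted p = 0.980), which turned to 0.19 without MRL-IRAK4-KD replicate 4.

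Cish (ENSMUSG00000032578.7, chr9:107296026-107302784, plus strand) encodes another inhibitor of the SOCS family, best known as a STAT5 target gene. Its start window (chr9:107296409-107296708 of GRCm38.p6, plus strand) held TTCNNNGAA in 2 places, side by side at the RefSeq start, and 30 bases around them (chr9:107296654-107296683) are shown with the matches in capitals.

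Cish: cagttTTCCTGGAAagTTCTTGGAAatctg

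In GENCODE M21 these bases lie in the first exon, in the 5' UTR of Cish-201 and before the start of Cish-204. TTCNNNGAA was in 8.3% of all 32851 RefSeq start windows of 300 bases, and at least 2 matches in 0.457%. No match was found in the windows of Il6st, Il6ra, Lifr, Osmr, Lif and Stat3, and the window of Clcf1 was not used here. Cish had 3.40, 4.25, 4.34 and 3.86 CPM in MRL replicates 1 to 4, 2.77, 2.72, 2.43 and 3.90 CPM in MRL-IRAK4-KD replicates 1 to 4, 2.36, 2.55 and 2.44 CPM in C57BL6/J replicates 1 to 3 and 1.89, 2.74 and 2.28 CPM in IRAK4-KD replicates 1 to 3. All 4 MRL libraries lay above all C57BL6/J and all IRAK4-KD libraries, and above MRL-IRAK4-KD replicates 1 to 3, while MRL-IRAK4-KD replicate 4 lay among the MRL libraries. MRL mice had a log2 fold change of 0.69 ± 0.19 over C57BL6/J mice, with an edgeR adjusted p of 0.558. DESeq2 gave an adjusted p of 0.0309 and limma-voom with quality weights one of 0.0499 for this difference, so that the call depends on the tool. Both tools also called more of all genes than edgeR in this comparison, with the counts given in the last section. The MRL libraries are those of the comparison that chose the members, so these p-values are not independent of that choice. Against MRL-IRAK4-KD mice the log2 fold change was 0.42 ± 0.17, and 0.59 without replicate 4.

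**Figure D2:**
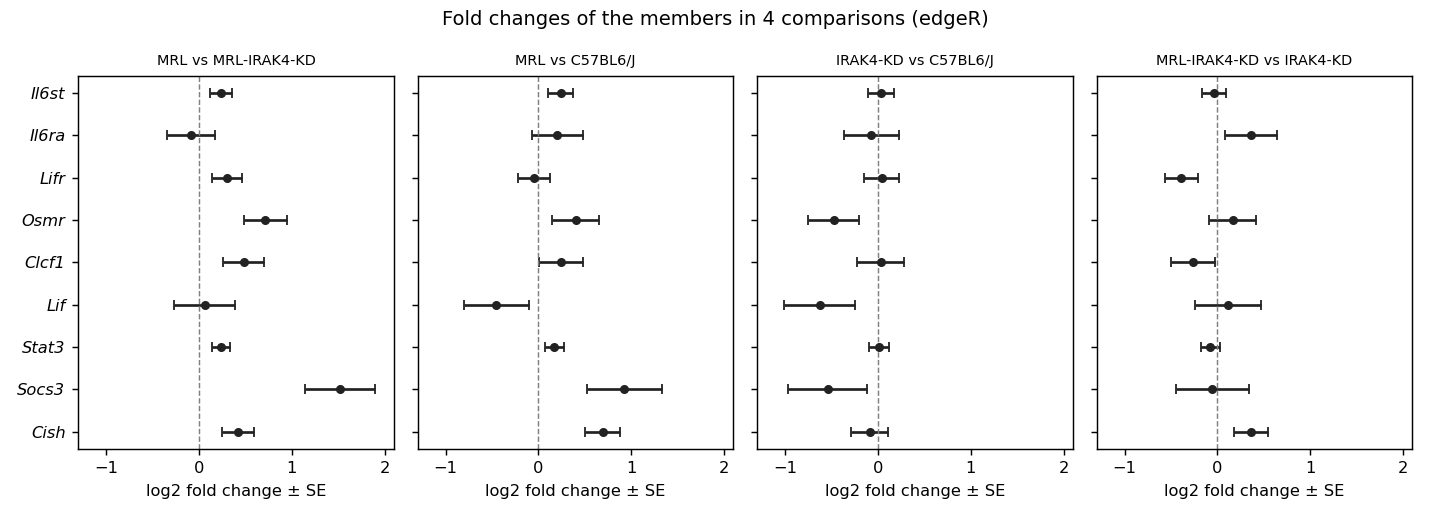
Log2 fold change ± standard error from edgeR (horizontal axis) of the 9 members (vertical axis) in 4 comparisons, with the group named first over the group named second. Socs3 had the largest value in the first panel, 1.52, and Osmr, Lif and Socs3 lay to the left of 0 in the panel of IRAK4-KD over C57BL6/J mice, at -0.48, -0.63 and -0.54.

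Side by side, 8 of the 9 members had a positive log2 fold change of MRL over MRL-IRAK4-KD mice, with Il6ra the exception. Their median was 0.30 against 0.00 over all genes tested. Without MRL-IRAK4-KD replicate 4, Il6ra was at 0.32 and Lif at -0.22. Ranges did not overlap for 2 members, Stat3 and Clcf1, and for 5.26% of all genes. Nothing is read from these signs, the median or the ranges, since this comparison chose the members. MRL and C57BL6/J ranges did not overlap for 3 of 9 members, Cish and Stat3 higher and Lif lower in MRL mice, against 9.63% of all genes. At an unadjusted p below 0.05 were Cish and Socs3, 2 of 9 members, against 5.55% of all genes, and 0 members and 0% of genes were at an adjusted p below 0.05. The MRL libraries are the same as in the comparison that chose the members. IRAK4-KD and C57BL6/J mice share no library with it, and there 2 of 9 members, Osmr and Lif, did not overlap, both lower in IRAK4-KD mice, against 11.2% of all genes. This group includes the library whose Fas transcripts go against its label. None of the 9 was at an unadjusted p below 0.05 in that comparison, against 3.8% of all genes, and 0.147% of genes were called at an adjusted p below 0.05. Between MRL-IRAK4-KD and IRAK4-KD mice 1 of 9, Lifr, was at an unadjusted p below 0.05, against 8.63% of all genes, and 0.0735% were called. That comparison holds the same MRL-IRAK4-KD libraries as the one that chose the members.

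The order of the 4 group means was read for each member against the library ranges. Neighbouring groups overlapped in every case but 1, Lif, whose C57BL6/J libraries lay above those of the next group, MRL.

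The interaction, that is the difference between the effect of intact over kinase-dead IRAK4 in lpr and in non-lpr mice, is given for the members without a test. It was 0.98 ± 0.56 on the log2 scale for Socs3, 0.51 ± 0.34 for Clcf1, -0.56 ± 0.50 for Lif, 0.34 ± 0.25 for Lifr and 0.33 ± 0.26 for Cish. Without MRL-IRAK4-KD replicate 4 they were 0.74 for Socs3, 0.33 for Clcf1, -0.85 for Lif, 0.17 for Lifr and 0.51 for Cish. Without the library labelled IRAK4-KD replicate 3 they were 1.04, 0.56, -0.47, 0.30 and 0.34 in the same order. With all libraries, Socs3 had both the largest interaction value and the largest standard error of the 9 members.

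The other genes of the pathway were read from a list of 30 ligands, receptors, kinases, STAT proteins and regulators, of which 29 were tested. This list, too, was written with earlier results of these data known. The ligand Il31 was not tested and had counts in 1 library, 8 in MRL-IRAK4-KD replicate 4. By edgeR, 0 of the 29 genes had an adjusted p below 0.05 in any of the 5 comparisons, and DESeq2 and limma-voom called 0 as well. At an unadjusted p below 0.05, 5 were higher and 1 lower in MRL than in MRL-IRAK4-KD mice, 6 of 29 against 11.4% of all genes. The called share of all genes there was 0.0972%. MRL and MRL-IRAK4-KD ranges did not overlap for 3 of 29 genes, Jak2, Ptpn6 and Socs4, against 5.26% of all genes. These genes are named below for that reason, so their separation there is not a further result. The list's median log2 fold change was 0.03 in that comparison and 0.12 in MRL over C57BL6/J mice, in which 1 gene, Stat5a, was at an unadjusted p below 0.05 and higher in MRL mice, 1 of 29 against 5.55% of all genes. In IRAK4-KD against C57BL6/J mice 2 of 29 genes, Socs1 and Ebi3, were at that level and lower, against 3.8% of all genes, and in MRL-IRAK4-KD against IRAK4-KD mice 2 of 29, Ebi3 and Il27, were at that level and higher, against 8.63%. For the interaction 1 of 29 genes, Jak2, was at that level, against 4.17% of all genes, and 0.00263% were called. The names of Stat5a, Socs1, Ebi3 and Il27 were picked after their values were seen.

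The listed ligands had mean levels of up to 2.76 TPM, reached by Ctf1. Il6, whose protein is the founding ligand of the family, had 9 to 48 counts per library and Osm, the ligand of the Osmr chain, 9 to 116, and these ligands were picked after their values were seen. Their TPM were 0.0875 ± 0.0379 and 0.130 ± 0.0663. Cntfr, the receptor of ciliary neurotrophic factor, had 60.5 ± 6.02 TPM, more than any member.

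Of the kinases, Jak1 is the main kinase attached to gp130. Jak1 had 184, 129, 148 and 145 CPM in MRL replicates 1 to 4, 153, 153, 164 and 135 CPM in MRL-IRAK4-KD replicates 1 to 4, 151, 150.3 and 148 CPM in C57BL6/J replicates 1 to 3 and 142, 154 and 165 CPM in IRAK4-KD replicates 1 to 3. All groups overlapped, and the log2 fold change of MRL over MRL-IRAK4-KD mice was 0.00 ± 0.11. Jak2 is attached to gp130 as well. Jak2 had 38.9, 39.0, 38.2 and 43.3 CPM in MRL replicates 1 to 4, 32.8, 36.0, 31.3 and 15.3 CPM in MRL-IRAK4-KD replicates 1 to 4, 32.5, 35.4 and 32.2 CPM in C57BL6/J replicates 1 to 3 and 33.3, 37.2 and 42.8 CPM in IRAK4-KD replicates 1 to 3. The 4 MRL libraries lay above the other 4 of the comparison and above the C57BL6/J libraries, but not above the library labelled IRAK4-KD replicate 3. Its log2 fold change over MRL-IRAK4-KD mice was 0.47 ± 0.20 (edgeR adjusted p = 0.437), and MRL-IRAK4-KD replicate 4 had the lowest level.

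Of the regulators, Ptpn6 encodes the phosphatase SHP-1, which acts mostly in cells of blood origin. Ptpn6 had 5.40, 4.03, 3.88 and 5.47 CPM in MRL replicates 1 to 4, 3.75, 3.35, 3.45 and 3.48 CPM in MRL-IRAK4-KD replicates 1 to 4, 4.00, 4.11 and 3.44 CPM in C57BL6/J replicates 1 to 3 and 3.63, 4.06 and 2.84 CPM in IRAK4-KD replicates 1 to 3. MRL replicates 1 and 4 were highest, and the 4 MRL libraries lay above the MRL-IRAK4-KD libraries, with a log2 fold change of 0.42 ± 0.16 (edgeR adjusted p = 0.437). Socs4, a SOCS family member with a role in receptor turnover, had means of 20.3 ± 0.852 CPM with intact and 17.6 ± 0.672 CPM with kinase-dead IRAK4 on the lpr background (n = 4 each), again without overlap and with an adjusted p of 0.439 by edgeR. Ptpn11, which encodes SHP-2 and carries the gp130 signal to the MAP kinases, had 151 ± 19.0 CPM and 126 ± 32.9 CPM, the second with MRL-IRAK4-KD replicate 4 at 77.5 CPM. Socs7 had 118 ± 10.1 CPM and 118 ± 9.75 CPM, and both genes overlapped between groups. Their log2 fold changes were 0.26 ± 0.17 and 0.00 ± 0.09.

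A list of 24 genes known as targets of STAT3 in glia and vessels was read next, all 24 of which were tested. The list was written with earlier results of these data known. Its comparisons of MRL mice share the same MRL libraries, and the shares below are a description. By edgeR, 0 had an adjusted p below 0.05 in any comparison. MRL and MRL-IRAK4-KD ranges did not overlap for 4 of 24 genes, Bcl3, Fos, Icam1 and Junb, against 5.26% of all genes. These genes are named below for that reason, so their separation in that comparison is not a further result. At an unadjusted p below 0.05, 6 of 24 were higher and 1 lower in MRL than in MRL-IRAK4-KD mice, against 11.4% of all genes in either direction, and 8 were higher and 1 lower in MRL than in C57BL6/J mice, against 5.55%. In IRAK4-KD against C57BL6/J mice 1 was higher and 1 lower, against 3.8%, and in MRL-IRAK4-KD against IRAK4-KD mice 2 were higher, against 8.63%. For the interaction 2, Bcl3 and Cd14, were at that level, against 4.17%. The median log2 fold changes were 0.30 and 0.45, beside 0.00 and -0.00 over all genes, and -0.03 in IRAK4-KD over C57BL6/J mice. DESeq2 called Fos, Bcl3 and Junb between MRL and MRL-IRAK4-KD mice and Bcl3, Icam1 and Lrg1 between MRL and C57BL6/J mice, all higher in MRL mice, and limma-voom called none of the list in either. DESeq2 also called more of all genes than edgeR in both comparisons, with the counts given in the last section.

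Bcl3 encodes a regulator of NF-kappaB in the nucleus and is a target of STAT3. Bcl3 had 0.585, 0.424, 0.351 and 1.19 CPM in MRL replicates 1 to 4, 0.307, 0.272, 0.163 and 0.213 CPM in MRL-IRAK4-KD replicates 1 to 4, 0.214, 0.111 and 0.160 CPM in C57BL6/J replicates 1 to 3 and 0.255, 0.188 and 0.164 CPM in IRAK4-KD replicates 1 to 3. All 4 MRL libraries lay above all other libraries, and MRL replicate 4 was highest. Its log2 fold change was 1.41 ± 0.39 over MRL-IRAK4-KD mice (edgeR adjusted p = 0.366), 1.97 ± 0.44 over C57BL6/J mice (adjusted p = 0.547), and 0.32 ± 0.45 in IRAK4-KD over C57BL6/J mice. Icam1 encodes an adhesion protein of activated endothelium. Icam1 had 3.22, 2.82, 2.71 and 6.60 CPM in MRL replicates 1 to 4, 2.07, 1.75, 2.18 and 2.47 CPM in MRL-IRAK4-KD replicates 1 to 4, 1.58, 2.08 and 1.85 CPM in C57BL6/J replicates 1 to 3 and 1.86, 1.64 and 1.23 CPM in IRAK4-KD replicates 1 to 3. The 4 MRL libraries again lay above all others, with log2 fold changes of 0.86 ± 0.27 over MRL-IRAK4-KD (adjusted p = 0.402) and 1.06 ± 0.29 over C57BL6/J mice (adjusted p = 0.581). Bcl3 and Icam1 were named because their MRL libraries were high, so their values against C57BL6/J mice are not independent of that choice.

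Fos and Junb encode subunits of the AP-1 transcription factor and respond within minutes to neuronal activity as well as to cytokines. Fos had 10.4, 86.2, 34.5 and 11.9 CPM in MRL replicates 1 to 4, 4.78, 7.05, 8.36 and 2.98 CPM in MRL-IRAK4-KD replicates 1 to 4, 8.99, 21.8 and 16.8 CPM in C57BL6/J replicates 1 to 3 and 10.4, 7.76 and 6.20 CPM in IRAK4-KD replicates 1 to 3. MRL replicate 2 was highest and MRL replicate 3 next, and MRL replicates 1 and 4 lay within the range of C57BL6/J mice. Junb had 40.0, 135, 72.8 and 36.3 CPM in MRL replicates 1 to 4, 33.4, 31.9, 36.0 and 20.8 CPM in MRL-IRAK4-KD replicates 1 to 4, 28.5, 42.2 and 44.8 CPM in C57BL6/J replicates 1 to 3 and 27.7, 17.0 and 17.9 CPM in IRAK4-KD replicates 1 to 3. The same 2 libraries led. The edgeR adjusted p of MRL against MRL-IRAK4-KD mice was 0.247 for Fos, with a log2 fold change of 2.63 ± 0.59, and 0.401 for Junb, with 1.22 ± 0.36. Thus the libraries that led differed between the target genes, with MRL replicate 4 highest for Bcl3 and Icam1 and MRL replicate 2 highest for Fos and Junb, while Socs3 was high in both.

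Gfap, the filament protein of astrocytes and the best known STAT3 target of reactive astrocytes, had another order of libraries than Socs3. Gfap had 457, 281, 286 and 271 CPM in MRL replicates 1 to 4, 402, 315, 361 and 568 CPM in MRL-IRAK4-KD replicates 1 to 4, 359, 319 and 386 CPM in C57BL6/J replicates 1 to 3 and 315, 369.8 and 294 CPM in IRAK4-KD replicates 1 to 3. MRL replicates 2 to 4 were the lowest of all libraries, and MRL-IRAK4-KD replicate 4 was the highest. The log2 fold change of MRL over MRL-IRAK4-KD mice was -0.35 ± 0.19 (edgeR adjusted p = 0.460) and over C57BL6/J mice -0.13 ± 0.21 (adjusted p = 1). Mcl1, a survival factor, and Hif1a, the oxygen-regulated transcription factor, had log2 fold changes of 0.13 ± 0.08 and 0.17 ± 0.17 over MRL-IRAK4-KD mice, and the groups overlapped for both.

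**Figure D3:**
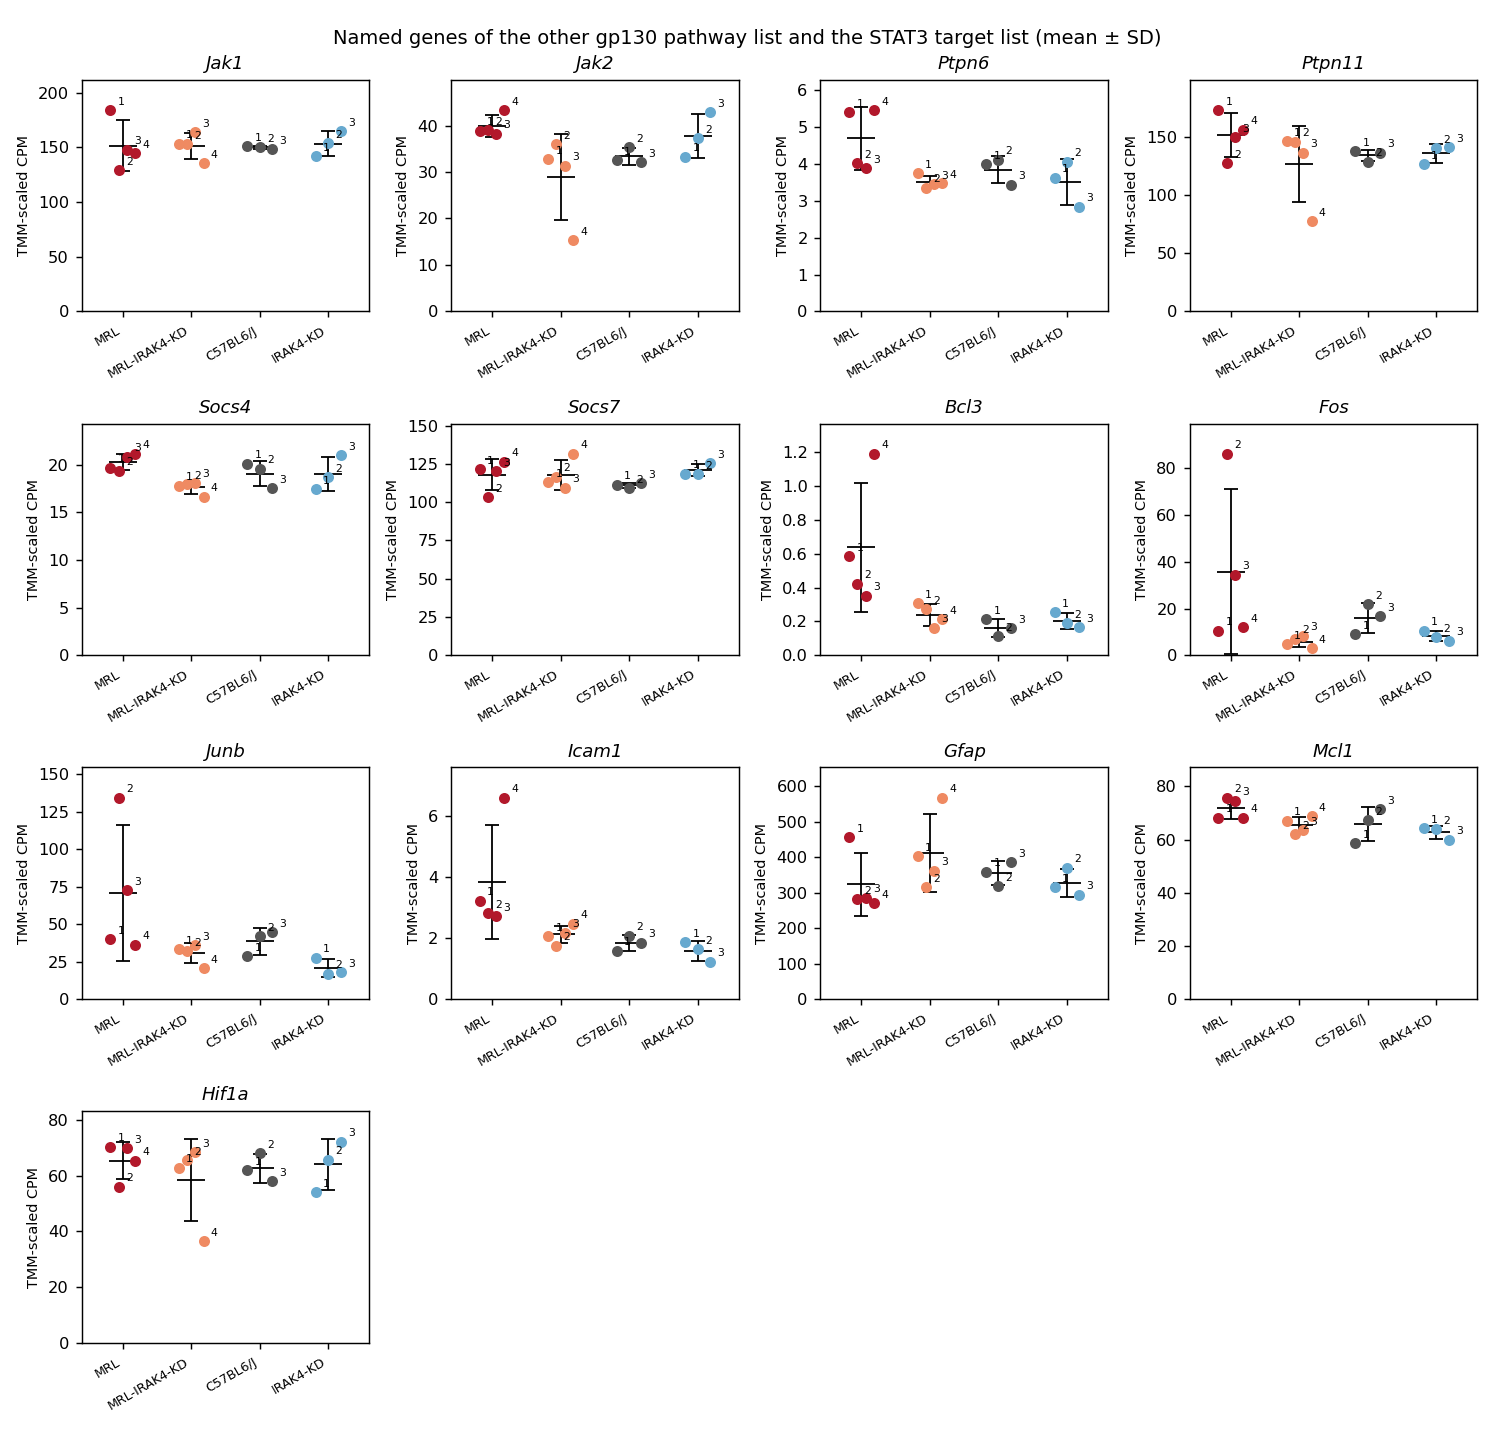
TMM-scaled CPM (vertical axis, from 0) of 13 named genes of both lists in each library of the 4 groups, with replicate numbers beside the points and black bars for the mean ± SD. MRL replicate 4 stands out for Bcl3 and Icam1 and MRL replicate 2 for Fos and Junb, while 3 MRL libraries are the lowest for Gfap.

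Markers of other cell types were read beside these values. The 8 endothelial markers summed to 202, 184, 179 and 330.1 CPM in MRL replicates 1 to 4, 139, 155, 121 and 143 in MRL-IRAK4-KD, 136, 132 and 114 in C57BL6/J and 81.8, 93.8 and 83.2 in IRAK4-KD libraries. MRL libraries were above, and IRAK4-KD libraries below, those of all other groups, and MRL replicate 4 was highest, as it was for Osmr and Socs3. Of the 8 markers, 6 had an unadjusted p below 0.05 and were higher in MRL than in MRL-IRAK4-KD mice, against 11.4% of all genes in either direction, and 1 of them, the transporter gene Slco1a4, had an edgeR adjusted p below 0.05. At the unadjusted level, 5 of 8 were higher and 0 lower in MRL than in C57BL6/J mice, against 5.55% of all genes. In IRAK4-KD mice 5 of 8 were lower at that level than in C57BL6/J mice, against 3.8% of all genes. At that level, 6 of 8 were higher in MRL-IRAK4-KD than in IRAK4-KD mice, against 8.63%. Osmr had its highest group mean in MRL and its lowest in IRAK4-KD mice. Median endothelial sums were 141 CPM in MRL-IRAK4-KD and 132 CPM in C57BL6/J libraries, and Osmr means were 4.68 and 5.83 CPM. The libraries of MRL-IRAK4-KD and C57BL6/J mice overlapped in both measures. MRL-IRAK4-KD replicate 4 had the lowest Osmr of all libraries, at 2.85 CPM. The 8 microglial markers summed to 379.6 to 488 CPM in MRL, 358 to 385 in MRL-IRAK4-KD, 316 to 337 in C57BL6/J and 309 to 341 in IRAK4-KD libraries. Of these, 5 were higher and 0 lower in MRL than in C57BL6/J mice at the unadjusted level, against 5.55% of all genes. Over MRL-IRAK4-KD mice 2 were higher and 0 lower, against 11.4%. The 8 leukocyte markers were low, with sums of 6.50 to 13.6 CPM in MRL and 4.15 to 6.14 in MRL-IRAK4-KD libraries, and MRL replicate 4 was again highest. At the unadjusted level 4 were higher and 0 lower in MRL than in MRL-IRAK4-KD mice, against 11.4% of all genes. Over C57BL6/J mice 2 were higher and 0 lower, against 5.55%. The 9 blood markers summed to 85.7 to 374 CPM in MRL and 54.1 to 196 in MRL-IRAK4-KD, 44.7 to 95.0 in C57BL6/J and 21.2 to 59.1 in IRAK4-KD libraries. They were highest in MRL replicates 1 and 4, at 374 and 368 CPM, the MRL libraries with the least and the most Socs3. At an unadjusted p below 0.05, 6 of 9 blood markers were higher in MRL than in MRL-IRAK4-KD mice, against 11.4% of all genes in either direction. The list had a median of 1.73 on the log2 scale there. Over C57BL6/J mice 8 of 9 were higher, against 5.55% of all genes, with a median of 1.79. By edgeR 0 blood markers were called in either comparison, beside 0.0972% and 0% of all genes. The 8 astrocyte markers summed to 4449 to 5249, 3344 to 4603, 4074 to 4864 and 4086 to 4543 CPM in the same order of groups. The part of these cells in the values of the members was not tested.

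**Figure D4:**
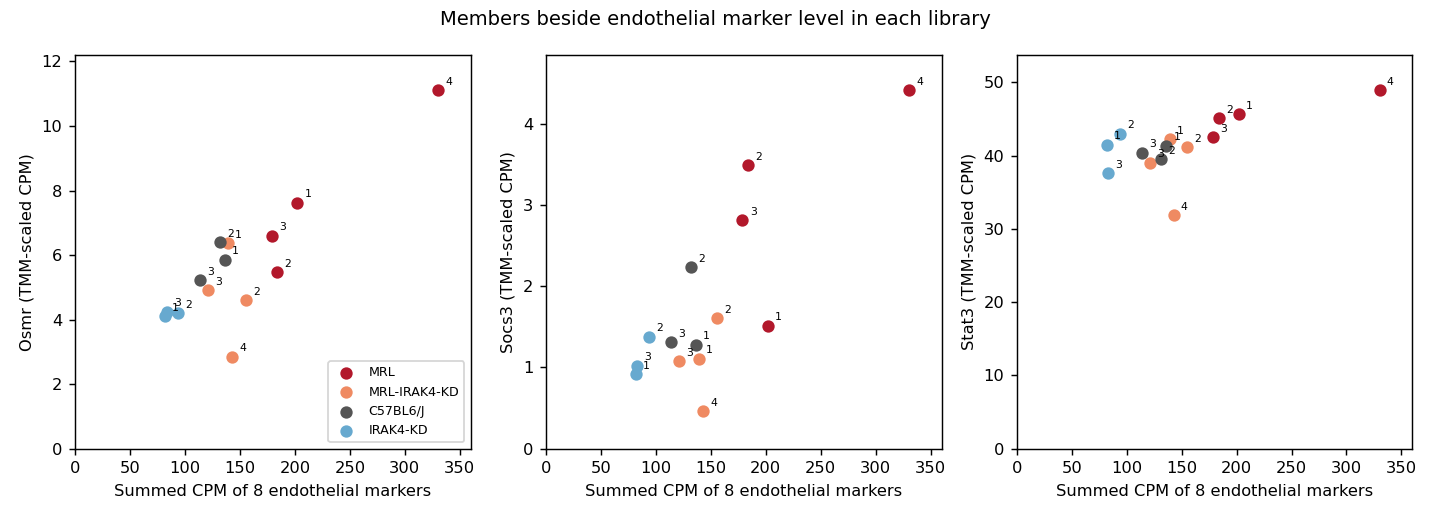
CPM of Osmr, Socs3 and Stat3 (vertical axes, from 0) against the summed CPM of 8 endothelial markers (horizontal axis) in each of the 14 libraries, coloured by group and numbered by replicate. MRL replicate 4 has the highest value on both axes in each panel, and the 3 IRAK4-KD libraries lie farthest left.

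Transcript counts were read for the annotated forms of the members, and how reads were assigned among the forms was not tested. The leading transcript held a median of 99.2% of the gene's counts for Il6st (Il6st-203), 99.2% for Lifr (Lifr-203), 98.3% for Osmr (Osmr-201), 98.7% for Socs3 (Socs3-201), 92.7% for Il6ra (Il6ra-202) and 92.1% for Stat3 (Stat3-203), and all of these are coding. In Clcf1 another kind of transcript led, as Clcf1-203, annotated as a retained intron, held a median of 75.0% of its counts, and 0 counts in C57BL6/J replicate 2 and MRL-IRAK4-KD replicate 4. The coding Clcf1-201 had 58, 80, 65 and 186 counts in MRL and 108, 0, 17 and 151 in MRL-IRAK4-KD replicates 1 to 4, and these overlapped, unlike the CPM of the whole gene. AC109138.7, a coding gene, and Gm26115, a miRNA gene, overlap Clcf1.

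Cish was split among 3 transcripts. Counts given here are not scaled to library depth. The coding Cish-201 had 1291, 1458, 1054 and 1081 counts in MRL replicates 1 to 4, 954, 851, 842 and 370 in MRL-IRAK4-KD, 354, 583 and 762 in C57BL6/J and 644, 791 and 845 in IRAK4-KD libraries. In TPM, Cish-201 ran from 1.57 to 1.96 in MRL and from 0.720 to 1.75 in MRL-IRAK4-KD libraries, and these ranges overlapped. Cish-202, annotated as a processed transcript that does not code, had 151, 923, 829 and 489 counts in MRL replicates 1 to 4, and 74 to 310 in the other 10 libraries. MRL replicates 2 to 4 thus held more of it than all others, and MRL replicate 1 was within their range. In MRL-IRAK4-KD replicate 4, 692 counts fell on Cish-204, against 0 to 313 elsewhere, and Cish-204 was its largest form, while Cish-201 was the largest in all 4 MRL libraries. Gm17040 and Gm17041 overlap Cish on the opposite strand, and strand in the counting was not given in the sources used here. Counts of Lif fell mostly on 1 of 2 coding forms in a given library, with Lif-201 at 0 counts in 4 libraries and Lif-202 at 0 in 5. Whether the forms differed or only the assignment of reads was not tested. No group held these libraries alone, and the whole gene had counts in all 14.

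**Figure D5:**
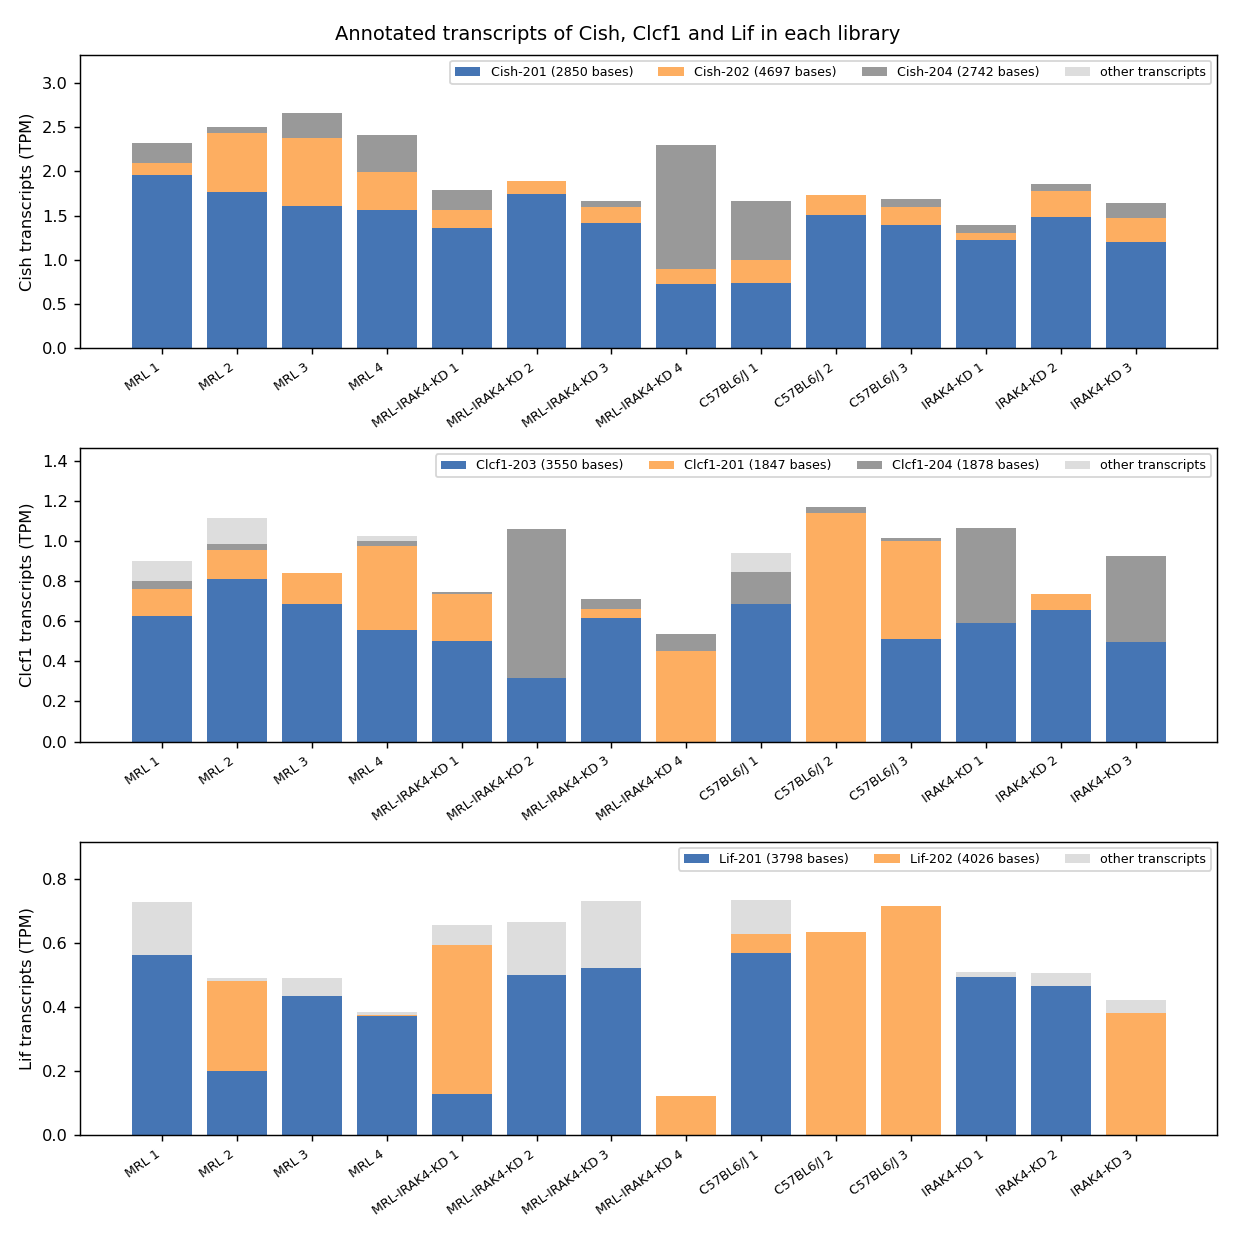
TPM (vertical axis, from 0) of the annotated transcripts of Cish, Clcf1 and Lif in each of the 14 libraries (horizontal axis), stacked so that a bar's height is the gene's level. Cish-202 is widest in MRL replicates 2 to 4, Cish-204 in MRL-IRAK4-KD replicate 4, and the retained intron Clcf1-203 is the largest part of Clcf1 except in MRL-IRAK4-KD replicates 2 and 4 and C57BL6/J replicate 2.

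The genes whose levels ran most like those of 4 members were ranked by Spearman correlation of log2 CPM over the 14 libraries, among 16104 genes with a mean of at least 1 CPM. These values describe libraries that share group, depth and dissection, and carry no test. For Socs3 they were Minar1 (0.97), Ankrd34c (0.97), Capn6 (0.97), Asah1 (0.96) and Tm6sf1 (0.95). Osmr ran most like Tmem198b (0.94), Plcb3 (0.93), Stom (0.93) and Atp10a (0.92). Stat3 ran most like Steap3 (0.92), Cyp2j9 (0.89), Fcgr2b (0.88), Inpp5d (0.87) and Lrrc3 (0.87), of which Fcgr2b and Inpp5d are known from microglia and other myeloid cells. Cish ran most like Cavin2 (0.94), Ppp1r3g (0.93), 5930412G12Rik (0.91), Aldoc (0.91) and Ldhb (0.90). After each group's mean was subtracted the correlations ran from 0.75 to 0.92 for Socs3 and from 0.36, for Aldoc, which is also on the astrocyte marker list, to 0.92 for Cish. None of the genes named here was itself a member or on the lists of pathway and target genes.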

How the data were processed

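Hippocampal RNA of 14 libraries was sequenced. The authors aligned reads to mm10 and deposited whole-number gene and transcript counts from StringTie (HISAT2 2.1.0, SAMtools 1.9, StringTie 2.1.0, R 4.0.5 and DESeq2 1.30.1 per the submitters' processing notes). The labels name a KAPA HyperPrep mRNA kit and the methods SMART-seq v4, and strand was not given in the sources used here. StringTie derives counts from coverage, and their totals exceed the reads in the sequencing sheet, so that they overstate depth. Rows without an Ensembl gene held 0.0254% to 0.188% of counts and were left out.

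The filter was a total of 10 counts, and the main fit used edgeR 4.0.16 (quasi-likelihood, TMM, 4 groups, R 4.3.3) with Benjamini-Hochberg adjustment over 38070 genes. All members were named. Of the 2 further lists, genes called in any comparison or without overlap between MRL and MRL-IRAK4-KD mice were named, and the 3 most abundant others. The members and lists were chosen with earlier results of these data known. TPM was computed from the transcript counts, and the fit was tested on simulated data. Start windows and sequences came from RefSeq (GRCm38.p6), matched by symbol for 8 of 9 members. Alternatives were DESeq2 1.42.0, limma-voom 3.58.1 with quality weights, 2 other scalings, 2 filters, transcript-summed counts, the groups of a comparison alone, a replicate block and each library left out. Leaving out both libraries that stand apart was added after seeing the data. 1 gene of the likeness ranking is not reported here.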

Additional observations from a re-analysis of the deposited data

Results flagged for a closer look

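Within groups of 4, 1 library stood far from the other 3 in 6 of 44 gene and group pairs examined, by a gap test that flags about 1 in 20 groups by chance. Of the members, Lifr had 27.6 CPM in MRL-IRAK4-KD replicate 4 against 49.7 to 53.6 CPM in the other 3 libraries. Clcf1 had 0.580 CPM in the same library against 1.13 to 1.21 CPM. Among the pathway genes, the phosphatase gene Ptpn11 had 77.5 CPM there against 136 to 146 CPM. MRL replicate 4 stood apart for Jak2, with 43.3 CPM against 38.2 to 39.0 CPM, and for Icam1, with 6.60 CPM against 2.71 to 3.22 CPM. Gfap had 457 CPM in MRL replicate 1 against 271 to 286 CPM in the other MRL libraries. Thus 3 of the 6 values came from MRL-IRAK4-KD replicate 4, all of them low, and 2 from MRL replicate 4, both high. Groups of 3 were not examined.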

How the results depend on the processing

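Of 1071 member values under alternatives, 1037 moved by less than their spread. Cish between MRL and C57BL6/J mice passed the threshold with DESeq2 (0.70, adjusted p = 0.0309) and limma-voom (0.73, adjusted p = 0.0499). The MRL libraries there are those of the comparison that chose the members. In the 3 comparisons with a test, 25 values turned sign, none of which was called. With limma-voom, those of MRL-IRAK4-KD over IRAK4-KD mice were 0.019 for Il6st, -0.052 for Il6ra and 0.024 for Socs3. Apart from 2 with the block given below, the others came from leaving out 1 library, or both libraries that stand apart. Over these, values of MRL over C57BL6/J mice ran from -0.070 to 0.0091 for Lifr. Those of IRAK4-KD over C57BL6/J mice ran from -0.031 to 0.10 for Il6st, -0.16 to 0.051 for Il6ra, -0.064 to 0.093 for Clcf1, -0.024 to 0.070 for Stat3 and -0.23 to 0.036 for Cish. Those of MRL-IRAK4-KD over IRAK4-KD mice ran from -0.090 to 0.049 for Il6st, -0.15 to 0.48 for Il6ra, -0.022 to 0.35 for Osmr, -0.10 to 0.40 for Lif, -0.13 to 0.0047 for Stat3 and -0.32 to 0.19 for Socs3.

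Counts of all genes called depended on the tool. DESeq2 called 395 genes between MRL and MRL-IRAK4-KD mice, 197 between MRL and C57BL6/J mice, 166 between IRAK4-KD and C57BL6/J mice, 283 between MRL-IRAK4-KD and IRAK4-KD mice and 59 for the interaction. Limma-voom called 232, 67, 145, 266 and 24 in the same order, against 37, 0, 56, 28 and 1 by edgeR. DESeq2 called 3 STAT3 targets between MRL and MRL-IRAK4-KD mice, 3 between MRL and C57BL6/J mice and 1, Cebpd, between MRL-IRAK4-KD and IRAK4-KD mice, and limma-voom called Cebpd too, 1 gene. With only the groups of a comparison in the fit, edgeR called 18 genes between MRL and MRL-IRAK4-KD mice, 95 between IRAK4-KD and C57BL6/J mice and 6 between MRL-IRAK4-KD and IRAK4-KD mice. Without a filter it called 4 for the interaction. Without both libraries that stand apart it called 20 between MRL and C57BL6/J mice and 11 for the interaction. Leaving out 1 library gave 25 to 52, 0 to 21, 33 to 106, 11 to 65 and 1 to 15 genes in the order above, and 0 of either list. Without MRL-IRAK4-KD replicate 4 the last 4 of these were 21, 106, 65 and 15, the highest, and without MRL replicate 1 there were 6 between MRL and C57BL6/J mice and 6 for the interaction. Without C57BL6/J replicate 1 or 3, or any IRAK4-KD library, 33 to 36 were called between IRAK4-KD and C57BL6/J mice, and without IRAK4-KD replicate 2 or 3, 11 between MRL-IRAK4-KD and IRAK4-KD mice. Without MRL replicate 4 or MRL-IRAK4-KD replicate 1 or 2, 2 or 3 were called for the interaction. The cause of these shifts was not tested.

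Replicate numbers did not pair the libraries. Of 19 same-numbered pairs 4 correlated over 0.1, with a range of -0.251 to 0.375, and 4 of 14 libraries were closest to their own number. With a replicate block 2 genes were called for the interaction and 1 STAT3 target, Lcn2, between MRL and MRL-IRAK4-KD mice, and the values of MRL over C57BL6/J mice were -0.024 for Il6ra and 0.051 for Lifr.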
